A study of Mus musculus with 8 samples.

Results

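Interferon-stimulated genes were followed across spleen tumours of mice in which the transcription factor Miz1 was intact (wt) or lacked its POZ domain (deltaPOZ). The members are 43 genes that are textbook targets of interferons and lie outside the p200 cluster (the Ifi200 family on mouse chromosome 1). They were chosen by name, with earlier results of these data known. Of them, 35 are mainly targets of type I interferon and 8 are mainly targets of gamma interferon (Irf1, Gbp2, Gbp3, Gbp7, Igtp, Irgm1, Tap1 and Tap2). All 43 were found among the 41214 genes of the files, and all 43 were among the 16456 genes that passed the filter on low counts and were tested.

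Messenger RNA was sequenced from 8 tumours of C57Bl6 mice, with 2 libraries in each of 4 groups: CD4+ T cell tumours with Miz1 deltaPOZ (T deltaPOZ), CD4+ T cell tumours with Miz1 wt (T wt), B cell tumours with Miz1 deltaPOZ (B deltaPOZ) and B cell tumours with Miz1 wt (B wt). Each library has its own number in its title, taken here as a different mouse, and replicate numbers only name the libraries. The labels give no driver of the tumours, no Cre line, and neither the age of the mice nor a way of sorting the cells; the deposited names of both T groups carry the tag Notch, and those of T deltaPOZ alone also the tag ENU, which the labels do not explain. The names carry a sequencing run tag that differs between T and B libraries and is shared within each, so that run and tumour type cannot be told apart. If the ENU tag marks a treatment, it cannot be told apart from the genotype in T tumours.

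The libraries held 44330101 to 58271208 gene counts. At that depth a count of 0 allows a level of up to 0.0515 to 0.0677 CPM, the unit of level used here, which sets a gene's count against its library's total; this limit covers counting error only. All 9 T cell markers were higher in T tumours and all 8 B cell markers were higher in B tumours, at adjusted p values of 0.0446 or lower. Zbtb17, the gene of Miz1, was counted at 40.1 and 36.9 CPM in T deltaPOZ, 49.6 and 42.3 CPM in T wt, 49.4 and 59.1 CPM in B deltaPOZ and 66.1 and 48.0 CPM in B wt; a count over the whole gene does not check the loss of 1 domain. Xist, the RNA of the inactive X chromosome, was at 0.936 and 0.757 CPM in B deltaPOZ against 975 and 1477 CPM in B wt, so the sex of the mice moved with genotype in B tumours, and their parts in any difference cannot be told apart. In T tumours Xist was at 11.8 and 35.4 CPM in T deltaPOZ and at 1246 and 26.0 CPM in T wt. Ddx3y, a gene of the Y chromosome, was at 142 and 184 CPM in T deltaPOZ and at 22.5 and 178 CPM in T wt. T wt 1 thus held both Xist RNA and RNA of a Y chromosome gene, and the cause was not tested. Of the libraries, 3 were doubted: T deltaPOZ 2, which had 25387 genes with a count while the other libraries had 18339 to 21078, T wt 1, for Xist and a neutrophil marker sum of 871 CPM, and B wt 2, with a neutrophil marker sum of 730 CPM. Counts are also given without them.

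Interferons are secreted proteins that cells release on sensing viral or other misplaced nucleic acid. Type I interferons act through the receptor Ifnar1/Ifnar2 and the kinases Jak1 and Tyk2 to form a complex that holds Stat2 and Irf9 and binds the interferon-stimulated response element (ISRE) near its target genes. Gamma interferon, made mostly by T and NK cells, acts through Ifngr1/Ifngr2, Jak1 and Jak2, and its targets often carry the gamma-activated site (GAS).

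The stretch before the transcription start was examined in RefSeq promoters (GRCm38.p6, the build of the counts), each running from 250 bases before to 50 bases after the start. The table held promoters for 32 of the 43 members; no promoter was used here for Dhx58, Ifi27, Mx1, Mx2, Oas2, Parp14, Parp9, Rtp4, Tap2, Usp18 and Zbp1. The ISRE core was searched as GAAA, any 2 bases and GAAA, or on the other strand TTTC, any 2 bases and TTTC, and GAS as TTCNNNGAA, which reads the same on both strands. An ISRE core was found for 18 of the 32 members (56.3%), against 1079 of all 27025 genes in the table (3.99%). It was found for 13 of 25 type I members (52.0%) and for 5 of 7 gamma-interferon type members (71.4%). A GAS match was found for 9 of 32 members (28.1%), against 2582 of all 27025 genes (9.55%), and 6 members held both. A match is a run of letters and not a measured binding site.

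The 150 bases before the start are shown for 8 members named below: 4 antiviral genes of the type I group, 3 GTPases of the gamma-interferon type and Irf1. These 8 are examples that each held a match, unlike the members as a set, of which 18 of 32 held an ISRE core. Among those not shown, Oasl1, Oasl2, Irf7 and Irf9 held neither motif. Each is written on the strand of its gene, with ISRE cores and GAS matches in capitals.
Isg15: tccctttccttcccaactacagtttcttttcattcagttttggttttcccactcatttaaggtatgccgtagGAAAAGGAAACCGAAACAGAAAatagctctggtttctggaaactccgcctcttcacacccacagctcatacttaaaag
Ifit1: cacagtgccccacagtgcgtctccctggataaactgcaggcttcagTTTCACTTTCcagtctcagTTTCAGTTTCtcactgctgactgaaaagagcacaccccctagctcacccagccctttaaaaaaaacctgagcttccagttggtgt
Oas3: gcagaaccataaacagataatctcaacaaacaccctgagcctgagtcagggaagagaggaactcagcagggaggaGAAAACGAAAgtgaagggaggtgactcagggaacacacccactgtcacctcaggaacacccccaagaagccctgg
Rsad2: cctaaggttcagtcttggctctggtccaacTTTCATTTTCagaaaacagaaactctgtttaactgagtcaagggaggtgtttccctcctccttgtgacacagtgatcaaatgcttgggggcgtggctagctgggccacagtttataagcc
Gbp2: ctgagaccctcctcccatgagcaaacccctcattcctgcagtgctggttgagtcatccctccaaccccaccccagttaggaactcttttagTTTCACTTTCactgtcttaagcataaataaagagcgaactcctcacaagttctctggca
Gbp7: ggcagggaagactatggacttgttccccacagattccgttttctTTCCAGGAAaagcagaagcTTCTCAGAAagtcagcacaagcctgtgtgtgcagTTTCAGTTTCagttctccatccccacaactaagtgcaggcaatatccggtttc
Igtp: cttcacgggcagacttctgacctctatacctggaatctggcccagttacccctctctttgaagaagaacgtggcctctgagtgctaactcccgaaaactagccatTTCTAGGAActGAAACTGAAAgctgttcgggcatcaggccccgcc
Irf1: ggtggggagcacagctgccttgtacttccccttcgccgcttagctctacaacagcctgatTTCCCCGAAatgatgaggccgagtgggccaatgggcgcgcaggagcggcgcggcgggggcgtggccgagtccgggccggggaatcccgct
These stretches lie at chr4:156200819-156200968 (minus strand), chr19:34640739-34640888 (plus), chr5:120777660-120777809 (minus), chr12:26456453-26456602 (minus), chr3:142620513-142620662 (plus), chr3:142530186-142530335 (plus), chr11:58199406-58199555 (plus) and chr11:53769864-53770013 (plus), in the order shown. Isg15 held 3 overlapping ISRE cores between bases -78 and -57, counted back from the base before the start. Ifit1 held 2 separate cores starting at -104 and -85. Gbp7 held 2 GAS matches, starting at -106 and -87, and 1 core starting at -53. Igtp held a GAS match at -45 followed 2 bases later by a core at -34. Irf1 held a GAS match at -90 and no core in the whole promoter. In Bst2 and Ifitm3, whose promoters are not shown, a GAS match overlapped an ISRE core.

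The first question was how far these genes differ between T and B tumours, a contrast that coincides with the sequencing run. Many of the calls below were lost when 1 library was left out. Of the 43 members, 22 were higher in T tumours and 1, Bst2, was lower, at an adjusted p under 0.05 (edgeR, Benjamini-Hochberg over all genes tested). Among all tested genes 35.3% passed, 19.3% higher and 16% lower. In 38 members the log2 fold change, T over B, was above 0, against 52.4% of all genes. Its median was 1.12 for the members and 0.05 for all genes tested. In 20 members every T library lay above every B library, against 20.1% of all genes, and in 0 members every T library lay below, against 17% of all genes. The members called higher were 16 of the 35 type I genes and 6 of the 8 gamma-interferon type genes. Members with and without an ISRE core were called higher in like shares, 9 of 18 and 8 of 14.

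**Figure D1:**
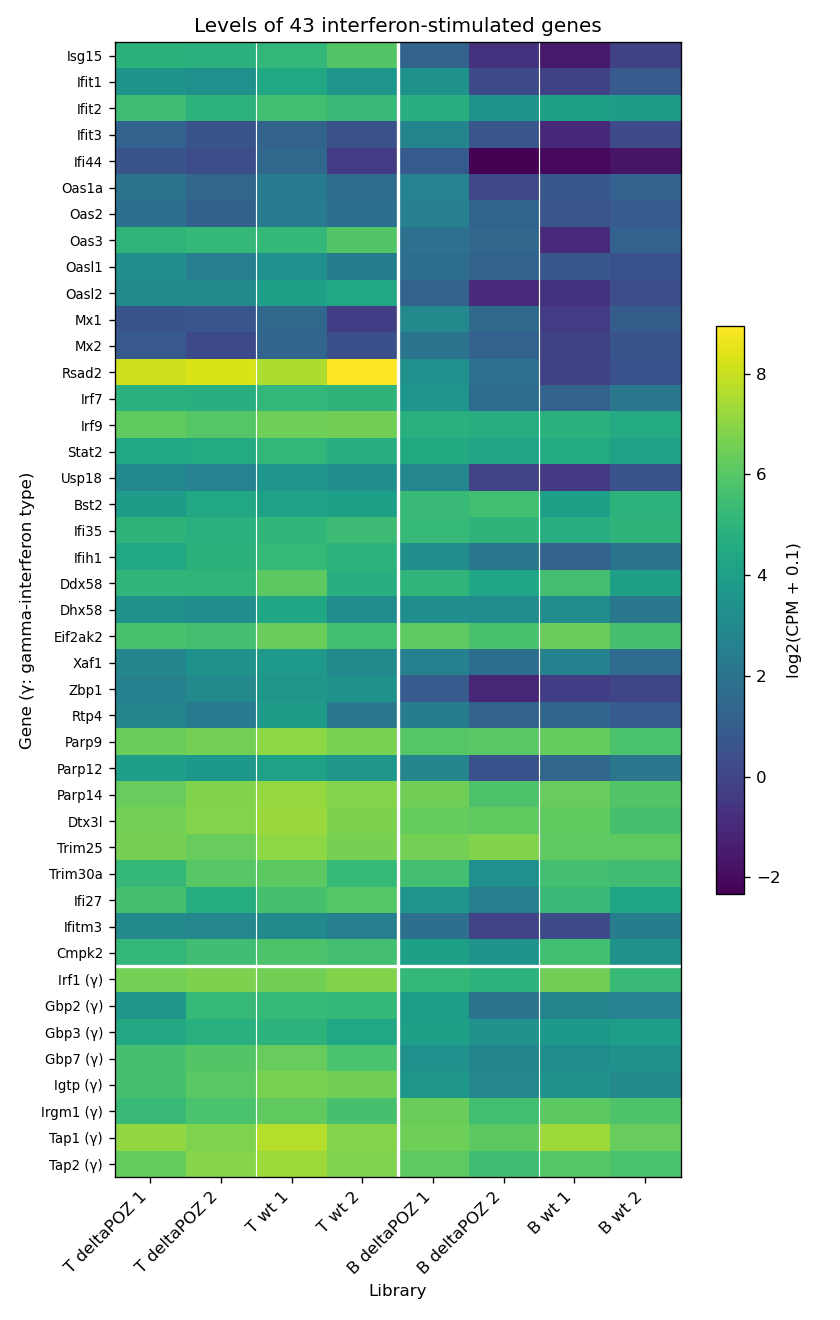
Heat map of log2(CPM + 0.1) for each of the 43 members (rows; γ marks the gamma-interferon type) in each of the 8 libraries (columns, T left of B and deltaPOZ left of wt). Rsad2, Isg15 and Oas3 are bright in the 4 T libraries and dark in the 4 B libraries, and the B deltaPOZ 1 column is lighter than the other B columns for many type I genes.

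Rsad2, which codes for viperin, an enzyme that makes a chain-terminating nucleotide against viruses, differed most between the tumour types. It lies at chr12:26442746-26456452 on the minus strand (ENSMUSG00000020641). Rsad2 was at 281 and 318 CPM in T deltaPOZ, 186 and 492 CPM in T wt, 9.91 and 3.65 CPM in B deltaPOZ, and 0.797 and 1.33 CPM in B wt. All T libraries lay far above all B libraries, with a log2 fold change of 6.89 ± 0.53 (SE) and an adjusted p of 0.000506. Cmpk2, a mitochondrial nucleotide kinase, lies next to it, 12751 bases away and read in the other direction. Cmpk2 was at 34.8 and 45.4 CPM in T deltaPOZ, 55.6 and 47.3 CPM in T wt, 16.3 and 11.4 CPM in B deltaPOZ, and 46.1 and 10.7 CPM in B wt. Cmpk2 and Rsad2 thus parted in B wt 1, where Cmpk2 reached the level of the T libraries and Rsad2 was at its lowest of all 8. Cmpk2 did not pass the test between tumour types (log2 fold change 1.19, adjusted p 0.0705).

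Isg15, the ubiquitin-like protein that is joined to other proteins after interferon, lies at chr4:156199424-156200818 on the minus strand (ENSMUSG00000035692). Isg15 was at 30.3 and 28.1 CPM in T deltaPOZ, 34.8 and 60.6 CPM in T wt, 2.28 and 0.518 CPM in B deltaPOZ, and 0.247 and 0.801 CPM in B wt. The tumour types did not overlap, and the log2 fold change was 5.45 ± 0.62 (SE, adjusted p 0.00165). Usp18, the protease that removes Isg15 and damps the receptor, was at 6.30 to 11.8 CPM in T tumours and 0.626 to 7.22 CPM in B tumours, with an overlap through B deltaPOZ 1 alone; it was called higher in T tumours.

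The Oas family was split. It holds the oligoadenylate synthetases, which switch on RNase L when they meet double-stranded RNA, and the Oas-like proteins. Oas3, Oasl1 and Oasl2 were higher in T tumours, and Oas1a and Oas2 did not pass (log2 fold changes 0.44 and 0.40, adjusted p 0.589 and 0.471). Oas3 was at 32.8 and 36.6 CPM in T deltaPOZ, 36.3 and 60.6 CPM in T wt, 3.65 and 2.51 CPM in B deltaPOZ, and 0.418 and 2.22 CPM in B wt. The gap between the T and B libraries of Oas3 was a log2 fold change of 4.35 ± 0.54 (SE, adjusted p 0.00209). Oasl2, an Oas-like protein, was at 8.25 and 8.07 CPM in T deltaPOZ, 16.3 and 21.0 CPM in T wt, 2.24 and 0.419 CPM in B deltaPOZ, and 0.531 and 1.16 CPM in B wt. Its T libraries all lay above its B libraries, by a log2 fold change of 3.54 ± 0.58 (SE, adjusted p 0.00519).

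The Mx and Ifit genes did not follow Rsad2 and Isg15 to the same extent. Mx1, a GTPase against influenza viruses whose protein is defective in C57BL/6 mice, was at 1.41 and 1.49 CPM in T deltaPOZ, 2.71 and 0.739 CPM in T wt, 7.74 and 2.87 CPM in B deltaPOZ, and 0.683 and 1.89 CPM in B wt. Its B deltaPOZ libraries were the highest of all 8, and neither Mx1 nor Mx2 passed between tumour types (log2 fold changes -0.72 and -0.23, adjusted p 0.376 and 0.711). Among the Ifit genes, whose proteins bind foreign RNA ends, Ifit1 and Ifit2 were called higher in T tumours. Ifit3 was at 1.28 to 2.27 CPM in T tumours and 0.380 to 6.67 CPM in B tumours, so that the B libraries spanned those of T (log2 fold change 0.04, adjusted p 0.963).

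**Figure D2:**
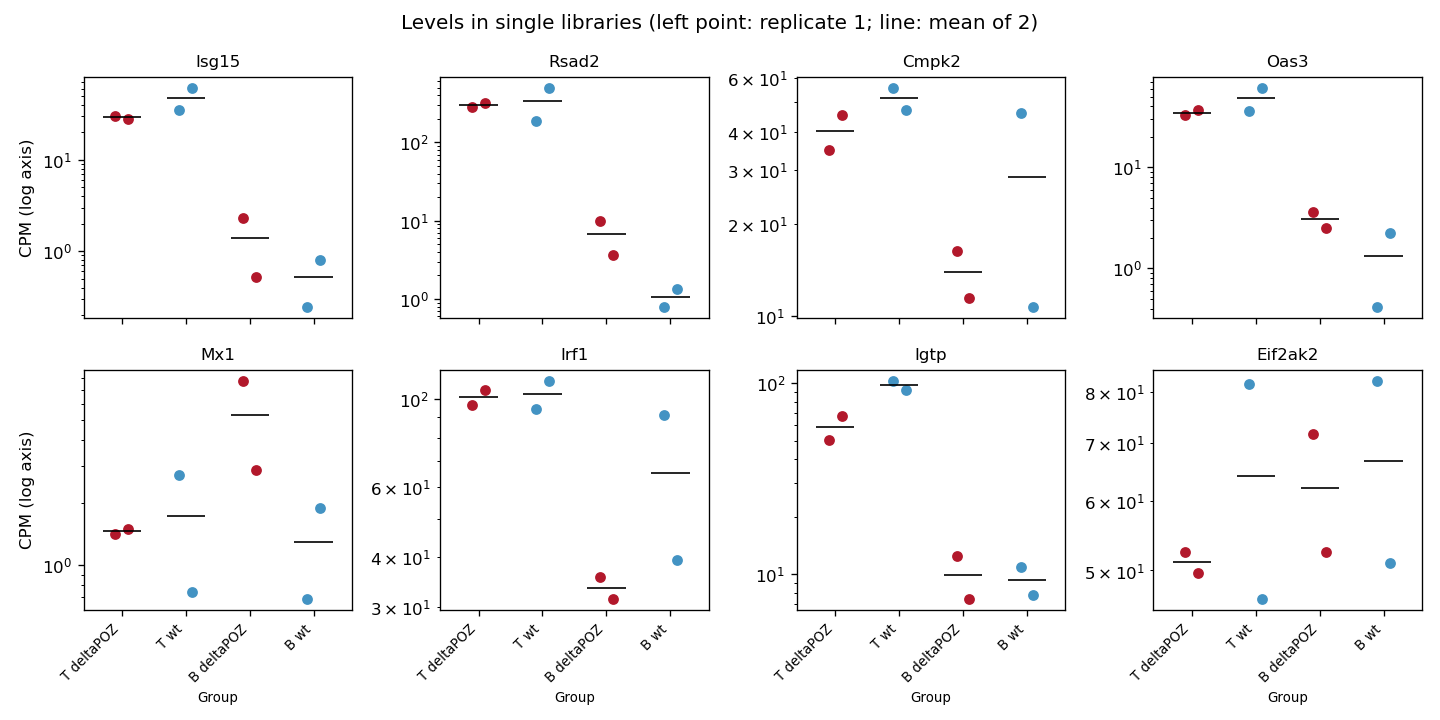
CPM on log axes for 8 members, with 1 point per library, T groups left of B groups and deltaPOZ (red) left of wt (blue); the line is the mean of 2 libraries. Rsad2, Isg15, Oas3 and Igtp separate T from B tumours, while Mx1, Cmpk2 and Eif2ak2 overlap.

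Ifit1 was at 11.1 and 9.91 CPM in T deltaPOZ, 20.6 and 11.95 CPM in T wt, 10.8 and 1.12 CPM in B deltaPOZ, and 0.797 and 1.80 CPM in B wt. B deltaPOZ 1 lay among the T libraries and the other 3 B libraries far below them (log2 fold change 2.23, adjusted p 0.0440). Ifit2 was at 31.5 to 45.6 CPM in T tumours and 11.4 to 27.1 CPM in B tumours, with no overlap.

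Of the transcription factors of the type I pathway, Irf7 and Irf9 were higher in T tumours and Stat2 did not pass (log2 fold change 0.36, adjusted p 0.171). Irf9, the DNA-binding partner of Stat2, was at 73.5 and 62.6 CPM in T deltaPOZ, 87.9 and 89.7 CPM in T wt, 27.9 and 26.2 CPM in B deltaPOZ, and 28.8 and 23.6 CPM in B wt. The 4 B libraries of Irf9 were close together and far below those of T, with a log2 fold change of 1.55 ± 0.14 (SE, adjusted p 0.000747). Irf7, which drives the second wave of type I interferon genes, was at 28.9 and 27.6 CPM in T deltaPOZ, 35.4 and 32.3 CPM in T wt, 12.1 and 3.05 CPM in B deltaPOZ, and 2.32 and 4.31 CPM in B wt. All T libraries of Irf7 lay above all B libraries, of which B deltaPOZ 1 was the highest (log2 fold change 2.63 ± 0.46 SE, adjusted p 0.00636).

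Among the nucleic acid sensors, Ifih1 and Zbp1 were higher in T tumours, and Ddx58, Dhx58 and Eif2ak2 did not pass (adjusted p 0.438, 0.213 and 0.626). Ifih1 (MDA5), a sensor of long double-stranded RNA, was at 21.2 and 29.7 CPM in T deltaPOZ, 37.2 and 31.1 CPM in T wt, 9.46 and 4.47 CPM in B deltaPOZ, and 2.20 and 3.89 CPM in B wt. The log2 fold change of Ifih1 was 2.68 ± 0.34 (SE, adjusted p 0.00218), with no overlap between tumour types. Zbp1, a sensor of Z-form nucleic acid that can start necroptosis, was at 6.05 to 12.3 CPM in T tumours and 0.359 to 1.76 CPM in B tumours, also without overlap (log2 fold change 3.25 ± 0.52 SE, adjusted p 0.00494). Eif2ak2 (PKR), a kinase that stops translation, stood at 57.6 ± 16.3 CPM in T tumours and 64.4 ± 15.3 CPM in B tumours (SD, n = 4 each).

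Of the 6 ADP-ribosyltransferases and ubiquitin ligases, 3 were higher in T tumours. Parp9 and its partner ligase Dtx3l, whose genes overlap, were at 82.3 to 129 CPM and 97.1 to 153 CPM in T tumours, against 53.9 to 78.2 CPM and 50.4 to 78.8 CPM in B tumours. Both were called higher in T tumours (log2 fold changes 0.63 and 0.78, adjusted p 0.0268 and 0.0176), and so was Parp12 (1.94, 0.0280). Parp14, Trim25 and Trim30a overlapped between tumour types and did not pass (adjusted p 0.0559, 0.256 and 0.452). Trim30a, a regulator of innate signalling, was low in 1 library only, at 47.6 and 10.1 CPM in B deltaPOZ against 47.2 and 44.5 CPM in B wt.

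Of the remaining type I effectors, Ifi27, a mitochondrial and nuclear envelope protein, was called higher in T tumours at 25.0 to 62.2 CPM, against 5.76 to 37.9 CPM in B tumours, with an overlap. Xaf1, which promotes apoptosis, and Ifitm3, which blocks viral fusion, had every T library above every B library without passing (log2 fold changes 1.09 and 1.45, adjusted p 0.0650 and 0.107). Rtp4 and Ifi44 were each highest in T wt 1, at 14.5 and 2.60 CPM, and did not pass (adjusted p 0.0613 and 0.134). Ifi35, a leucine zipper protein, was nearly level at 28.7 to 41.9 CPM in T tumours and 25.9 to 37.7 CPM in B tumours (log2 fold change 0.11, adjusted p 0.619).

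The 5 interferon-induced GTPases of the gamma type, which act on the membranes around intracellular microbes, were higher in T tumours except Irgm1. Igtp (Irgm3, chr11:58199556-58207591, plus strand, ENSMUSG00000078853) was at 50.2 and 67.0 CPM in T deltaPOZ, 103 and 91.5 CPM in T wt, 12.4 and 7.40 CPM in B deltaPOZ, and 10.9 and 7.76 CPM in B wt. Its T libraries stood well clear of its B libraries (log2 fold change 2.97 ± 0.24 SE, adjusted p 0.000571). Gbp7 was at 51.0 to 79.3 CPM in T tumours and 7.02 to 11.03 CPM in B tumours, with a log2 fold change of 2.72 ± 0.22 (SE, adjusted p 0.000586). Gbp2 was at 12.5 and 37.2 CPM in T deltaPOZ, 36.8 and 36.4 CPM in T wt, 15.4 and 3.89 CPM in B deltaPOZ, and 6.62 and 6.25 CPM in B wt. T deltaPOZ 1 lay below B deltaPOZ 1, and the other T libraries stood together far above (log2 fold change 1.93, adjusted p 0.0262). Gbp3 was called with a log2 fold change of 0.90 (adjusted p 0.0253). Irgm1 was at 39.8 to 73.5 CPM in T tumours and 46.6 to 85.6 CPM in B tumours and did not pass (log2 fold change -0.27, adjusted p 0.425). Of the peptide transporter that loads MHC class I, Tap2 was called higher in T tumours, at 78.7 to 155 CPM against 44.3 to 71.7 CPM in B tumours, and Tap1 was not (adjusted p 0.172). Irf1, the first transcription factor made after gamma interferon, was at 94.4 to 111 CPM in T tumours and 31.4 to 91.0 CPM in B tumours and was called higher in T tumours.

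Bst2 (tetherin), which holds budding viruses at the cell surface, was the single member called lower in T tumours. Bst2 was at 14.7 and 21.8 CPM in T deltaPOZ, 17.5 and 16.2 CPM in T wt, 38.2 and 45.6 CPM in B deltaPOZ, and 16.4 and 30.9 CPM in B wt. B wt 1 lay among the T libraries, so the tumour types overlapped. The log2 fold change was -0.84 ± 0.25 (SE, adjusted p 0.0392), and the call was lost in 7 of the 8 fits that each left out 1 library.

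**Figure D3:**
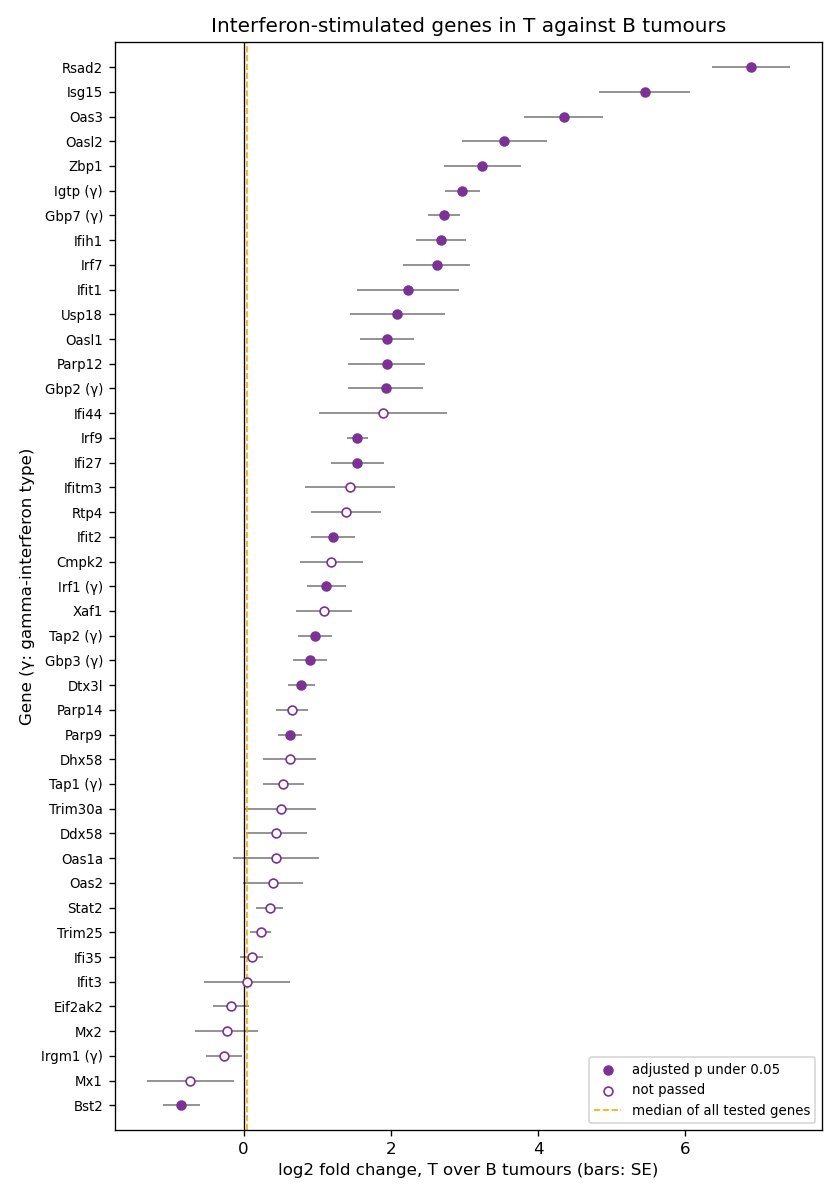
Log2 fold change, T over B tumours, of each of the 43 members, with its SE; filled points passed an adjusted p of 0.05. Rsad2 leads at 6.89, Bst2 is last at -0.84, and most points lie right of the median of all genes tested (dashed, 0.05).

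Set per kilobase of exon, the members' order also differed between the tumour types. In T tumours the highest mean levels were 73.6 CPM per kb for Rsad2, 50.8 for Isg15, 38.5 for Igtp, 32.1 for Ifi27 and 30.5 for Tap2. In B tumours they were 36.3 CPM per kb for Bst2, 18.4 for Ifi35, 18.1 for Tap1, 15.4 for Tap2 and 15.2 for Trim25. Neighbours in these orders such as Ifi35 and Tap1 did not differ beyond the spread of their libraries. Ifi44, a GTPase-like antiviral protein, was the lowest in both, at 0.240 CPM per kb in T tumours and 0.0885 CPM per kb in B tumours. Of the 43 members, 6 in T tumours and 20 in B tumours had a median level under 5 CPM.

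Other cells differed between the tumour types as well. All 8 erythroid markers were called higher in T tumours, where their summed level was 7610 and 12467 CPM in T deltaPOZ and 4637 and 22602 CPM in T wt, against 12.4 and 222 CPM in B deltaPOZ and 5.09 and 4.87 CPM in B wt. Their part in the members' difference was not tested. Within the T libraries 2 of 43 members (4.65%), Rsad2 among them, followed the order of the erythroid sum, against 5.89% of all genes. An order within the T libraries does not bear on the difference from the B libraries. Of the NK markers 3 of 6 were called higher in T tumours, and of the platelet markers 4 of 5 (sums of 20.5 and 35.6 CPM in T deltaPOZ and 6.70 and 14.8 CPM in T wt, against 1.08 to 2.24 CPM in the B libraries). Of the 9 dendritic cell markers 2 were called higher and 2 lower, and of the macrophage and neutrophil markers 0 of 10 each. Among all tested genes 19.3% were called higher and 16% lower. In bulk tumours fewer cells of a type and less RNA per cell cannot be told apart. Leaving out each library in turn left 13 to 24 members called, the lowest counts (13) coming without T deltaPOZ 2 or without T wt 1. Ifit1, Usp18, Parp9 and Parp12 each lost their call in 6 of these 8 fits, Gbp2 and Gbp3 in 5, Ifit2 and Dtx3l in 4, and Ifi27, Irf1 and Tap2 in 3. The 11 that kept it in all 8 were Rsad2, Isg15, Oas3, Oasl1, Oasl2, Irf7, Irf9, Ifih1, Zbp1, Igtp and Gbp7. Without B wt 2 there were 14, and there were 6 without the 3 doubted libraries together: Rsad2, Igtp, Gbp7, Irf9, Isg15 and Oas3. That fit keeps 5 libraries in 4 groups and so assumes the same spread in all.

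In B tumours the question was what loss of the POZ domain does to these genes. No member passed the test (0 of 43, against 0.00608% of all genes), and 8 members had an unadjusted p under 0.05, against 12.1% of all genes. By direction, 31 members were higher in B deltaPOZ and 12 lower (48.1% of all genes were higher), with a median log2 fold change of 0.31 against -0.01 for all genes. In 12 members both B deltaPOZ libraries lay above both B wt libraries, against 19.9% of all genes, and in 2 members, Irf1 and Ifi27, both lay below, against 19.1%; Ifi35, among the 12, overlaps on raw library totals. The type I members had a median log2 fold change of 0.58 and the gamma-interferon type members one of -0.03.

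The 5 members with the smallest p in B tumours are given as values that did not pass. Rsad2 (9.91 and 3.65 CPM in B deltaPOZ, 0.797 and 1.33 CPM in B wt) had a log2 fold change of 2.67 ± 0.65 (SE, adjusted p 0.260). Ifi27 was at 11.7 and 5.76 CPM in B deltaPOZ against 37.9 and 19.6 CPM in B wt, a log2 fold change of -1.72 ± 0.51 (SE, adjusted p 0.310). DESeq2, the other count test, called these 2 members and no other, among 682 genes. Ifit3 was at 6.67 and 1.53 CPM in B deltaPOZ against 0.380 and 1.09 CPM in B wt (log2 fold change 2.48 ± 0.89 SE, adjusted p 0.370). Trim25, a ubiquitin ligase that activates the RNA sensor RIG-I, was at 96.4 and 113 CPM in B deltaPOZ against 70.1 and 70.3 CPM in B wt (log2 fold change 0.58 ± 0.21 SE, adjusted p 0.370). The fifth, Ifih1, had a log2 fold change of 1.19 ± 0.46 (SE, adjusted p 0.389). In Rsad2, Ifit3, Trim25 and Ifih1 both B deltaPOZ libraries were higher, and in Ifi27 both were lower.

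The higher values of B deltaPOZ came mostly from 1 of its libraries. B deltaPOZ 1 was the highest of the 4 B libraries for 29 of 43 members, against 25.5% of all genes, and the lowest for 0. B deltaPOZ 2 was the highest for 2 members and the lowest for 18 (26.1% of all genes). B wt 1 was the highest for 10 (28.4% of all genes) and B wt 2 for 2. Summed over the 20 members with a B median under 5 CPM, a split set after the values were seen, the level was 116.7 and 37.2 CPM in B deltaPOZ against 27.4 and 42.2 CPM in B wt. These 20 members, all of type I, had a median log2 fold change of 1.21; without B deltaPOZ 1 it was -0.01, with 10 higher and 10 lower. The median over all 43 members was -0.28 without B deltaPOZ 1, with 17 higher and 26 lower, which turns its direction. Ifit1 shows the pattern, at 10.8 and 1.12 CPM in B deltaPOZ against 0.797 and 1.80 CPM in B wt.

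**Figure D4:**
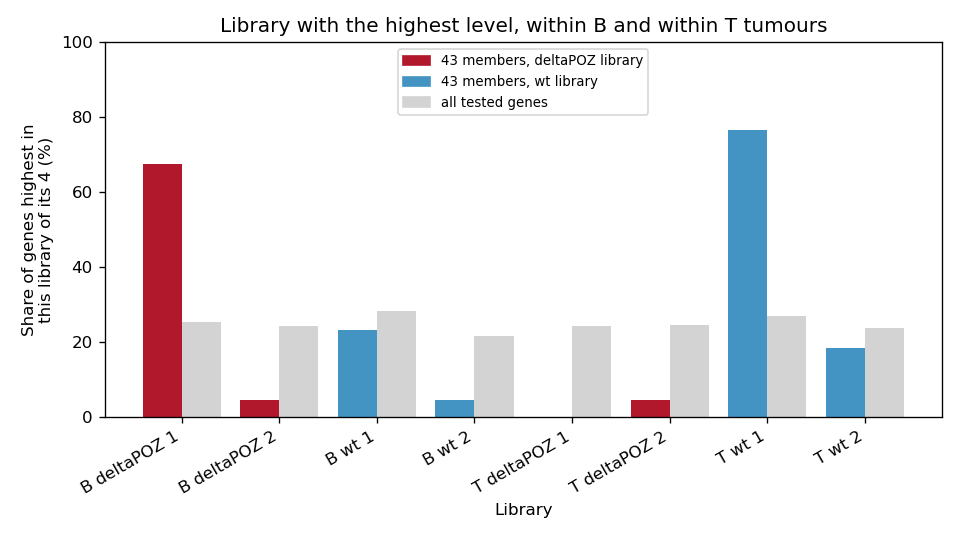
Share of the 43 members (coloured; red deltaPOZ, blue wt) and of all tested genes (grey) whose level was highest in each library among the 4 of its tumour type. B deltaPOZ 1 holds 67.4% and T wt 1 holds 76.7% of the members, against 25.5% and 27.1% of all genes.

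Some macrophage markers, the C1q genes, also stood out in B deltaPOZ 1. The complement genes C1qa, C1qb and C1qc were at 38.7, 40.1 and 38.8 CPM in B deltaPOZ 1, and at 4.54 to 11.3 CPM in B deltaPOZ 2, B wt 1 and B wt 2. The summed level of all 10 macrophage markers was 513 and 97.2 CPM in B deltaPOZ and 125 and 773 CPM in B wt and none of the 10 was at 0. Lyz2 alone gave 633 CPM of the B wt 2 sum. That library was also doubted for its neutrophil marker sum of 730 CPM, so its macrophage sum cannot be read as more macrophages. In B deltaPOZ against B wt, 8 of 8 erythroid and 8 of 10 macrophage markers were higher. In the same contrast 10 of 10 neutrophil and 8 of 8 stroma and endothelium markers were lower, with 0 of all these called. The part of these cells in the members' levels was not tested. Whole chromosomes differed too: genes of chromosomes 3 and 4 were raised in B deltaPOZ 1 by a median of 0.51 and 0.43 on the log2 scale over the other B libraries, and Ifi44, Gbp2, Gbp3 and Gbp7 (chromosome 3) and Isg15 and Ddx58 (chromosome 4) lie there. In B wt 1 genes of chromosome 12 were raised by a median of 0.57, and Ifi27, Cmpk2 and Rsad2 lie on it.

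Irf1 went the other way from most type I genes in B tumours, at 35.7 and 31.4 CPM in B deltaPOZ against 91.0 and 39.4 CPM in B wt (log2 fold change -0.96, adjusted p 0.389). Both B deltaPOZ libraries lay below both B wt libraries, and B wt 1 was far above the other 3. Tap1 (87.7 and 69.4 CPM in B deltaPOZ, 158 and 80.7 CPM in B wt) was also highest in B wt 1, with overlapping groups.

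In T tumours no member passed either (0 of 43, against 0% of all genes), and 0 members had an unadjusted p under 0.05, against 2.65% of all genes. DESeq2 called 0 members among 51 genes. By direction, 3 members were higher in T deltaPOZ (49.8% of all genes) and 40 lower (50% of all genes), with a median log2 fold change of -0.36 against 0.00 for all genes. In 16 members both T deltaPOZ libraries lay below both T wt libraries, against 17% of all genes, and in 0 members both lay above, against 15.4%. The median was -0.36 for the type I members and -0.38 for the gamma-interferon type members, and all 8 gamma-interferon type members were lower.

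The 5 members with the smallest p in T tumours, none of which passed (adjusted p 1 for each), were Igtp, Irf9, Stat2, Trim25 and Oasl2. Igtp was at 50.2 and 67.0 CPM in T deltaPOZ against 103 and 91.5 CPM in T wt, a log2 fold change of -0.73 ± 0.31 (SE). Irf9 was at 73.5 and 62.6 CPM in T deltaPOZ against 87.9 and 89.7 CPM in T wt (log2 fold change -0.38 ± 0.19 SE). Stat2, the partner of Irf9, was at 21.2 and 23.5 CPM in T deltaPOZ against 34.6 and 27.6 CPM in T wt (log2 fold change -0.48 ± 0.26 SE). Trim25 and Oasl2 had log2 fold changes of -0.36 ± 0.21 and -1.19 ± 0.74 (SE). All 5 had both T deltaPOZ libraries below both T wt libraries. Irf9 lies on chromosome 14, whose genes were raised by a median of 0.48 on the log2 scale in T deltaPOZ 1 over the other T libraries.

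As in B tumours, 1 library held most of the high values. T deltaPOZ 1 was the highest of the 4 T libraries for 0 of 43 members and T deltaPOZ 2 for 2, while T wt 1 was the highest for 33 (27.1% of all genes) and T wt 2 for 8. T wt 2 was also the lowest for 11 members (20.4% of all genes). Without T wt 1 the median log2 fold change was -0.14, with 25 members lower and 18 higher. T wt 1 also held the most neutrophil marker RNA, with a sum of 419 and 108 CPM in T deltaPOZ and 871 and 52.6 CPM in T wt, and the Xist value above. Markers of other cells leaned both ways, with 0 called. Higher in T deltaPOZ were 8 of 8 B cell markers (sums of 98.0 and 136.6 CPM in T deltaPOZ, 97.4 and 25.4 CPM in T wt). So were 10 of 10 macrophage markers (350.3 and 430.5 CPM in T deltaPOZ, 205.8 and 316.0 CPM in T wt). The 5 of 5 platelet markers and 8 of 8 stroma and endothelium markers were higher there too. Lower in T deltaPOZ were 8 of 8 erythroid, 8 of 10 neutrophil and 4 of 6 NK markers. The part of these cells in the members' levels was not tested. Rsad2, Isg15, Oas3 and Irf9 were among the 8 members highest in T wt 2 instead.

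**Figure D5:**
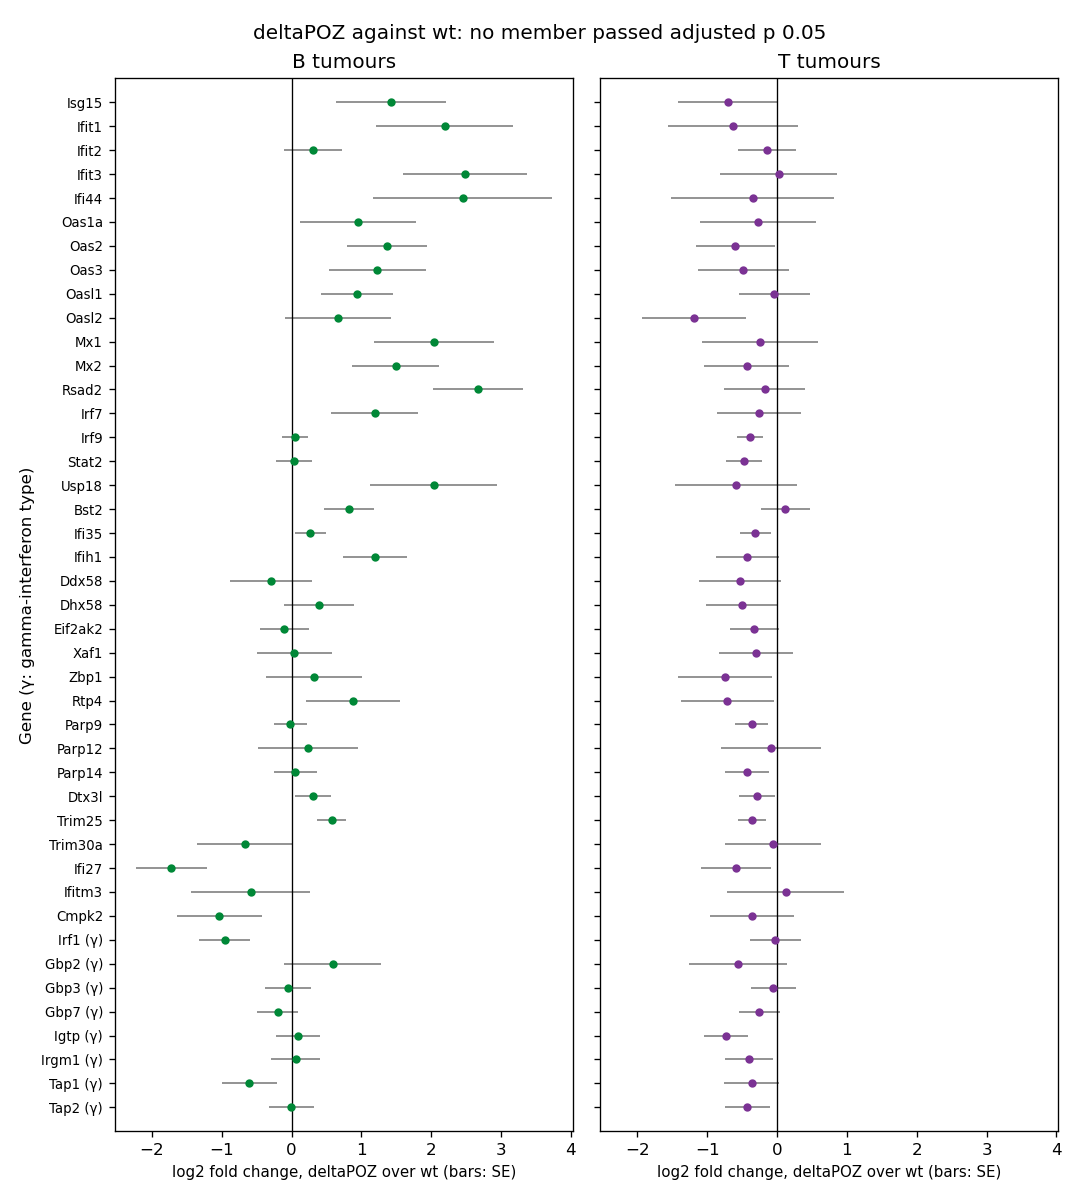
Log2 fold change, deltaPOZ over wt, with its SE, of each of the 43 members in B tumours (left) and T tumours (right). In B tumours 31 points lie right of 0 and spread up to 2.67, and in T tumours 40 lie left of 0, with a median of -0.36.

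Averaged over both tumour types, 0 members passed (0% of all genes), with 21 higher (49.8% of all genes) and 22 lower in deltaPOZ (50.2%), and 2 at an unadjusted p under 0.05 (8.9% of all genes). The even split rests on single libraries: it was 11 higher and 32 lower without B deltaPOZ 1, and 28 higher and 15 lower without B deltaPOZ 2. The smallest p values belonged to Ifi27 (log2 fold change -1.15 ± 0.36 SE, adjusted p 0.504), Rsad2 (1.25 ± 0.43 SE, 0.512), Ifit3 (1.25 ± 0.60 SE, 0.584), Irf1 (-0.49 ± 0.26 SE, 0.606) and Bst2 (0.47 ± 0.25 SE, 0.608). The deltaPOZ effect in T minus that in B was tested as an interaction, and 0 members passed (0% of all genes), with 4 at an unadjusted p under 0.05 (6.26% of all genes). It was negative for 36 of 43 members (48.8% of all genes), with a median of -0.71 against 0.02 for all genes, and -0.23 without B deltaPOZ 1. Its smallest p values were those of Rsad2 (-2.85 ± 0.86 SE, adjusted p 0.700), Trim25 (-0.94 ± 0.29 SE, 0.712), Ifih1 (-1.62 ± 0.64 SE, 0.788), Oas2 (-1.97 ± 0.81 SE, 0.795) and Mx2 (-1.93 ± 0.86 SE, 0.803). In 3 members, Trim25, Ifih1 and, on this scaling alone, Ifi35, both B deltaPOZ libraries lay above both B wt libraries and both T deltaPOZ libraries below both T wt libraries, against 2.35% of all genes. The opposite leanings of the members in B and T tumours were thus not shown to differ for any single gene.

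Upstream of these genes, interferon RNA itself was near the limit of detection. Of 21 interferon genes only Ifng passed the filter; Ifnb1 had at most 1 count in a library. Ifng, the gene of gamma interferon, had 2 and 14 counts in T deltaPOZ, 22 and 51 in T wt, 5 and 7 in B deltaPOZ, and 0 and 0 in B wt, and it was called higher in T tumours (adjusted p 0.0249). Among all tested genes 19.3% were called higher in T tumours and 16% lower. Of the 6 interferon receptor genes, Ifnar2 was called higher in T tumours (log2 fold change 0.96 ± 0.16 SE, adjusted p 0.0060) and Ifngr2 lower (-1.57 ± 0.17 SE, 0.00134). Among the signalling genes Jak2 (log2 fold change 1.70 ± 0.21 SE, adjusted p 0.00212) and Stat3 were higher in T tumours, and the transcription factors Irf5 and Irf8 were lower. Of 12 genes of sensing and induction, 2 were higher in T tumours (Ikbke and Ticam1) and 2 lower, Unc93b1, which carries Toll-like receptors to endosomes, and Tmem173 (STING). The counts of receptor genes and of sensing genes were near the shares of all genes in each direction.

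Of 13 tested negative regulators and nucleases, 4 were higher in T tumours (19.3% of all genes) and 1, Samhd1, was lower (16% of all genes). Among the 4 were Socs1 and Socs3, the feedback inhibitors of Jak kinases, and the RNase gene Isg20 (log2 fold change 5.22 ± 0.48 SE, adjusted p 0.000831). Trex1 had 0 counts in all 8 libraries. The strand setting and annotation release of the counting are not given, so this 0 cannot be read as absent expression. Of 22 further gamma-interferon and MHC class I genes, 11 were higher in T tumours (19.3% of all genes) and 0 lower (16% of all genes). Among the 11 were the GTPases Irgm2, Ifi47 and Gbp4 and the class I light chain B2m. Of 12 tested p200 genes 3 were lower in T tumours (16% of all genes) and 0 higher (19.3% of all genes). Ifi209 was at 13.8 and 14.9 CPM in T deltaPOZ, 25.7 and 29.1 CPM in T wt, 79.7 and 81.9 CPM in B deltaPOZ, and 310 and 301 CPM in B wt. For deltaPOZ against wt, 0 genes of these 7 lists passed in B or in T tumours (0.00608% and 0% of all genes). The closest was Ifi209 in B tumours (log2 fold change -1.92, adjusted p 0.0596).

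Some counts are less certain than others. Members of the Oas, Ifit, Gbp, Mx and Trim30 families have related genes nearby, between which the counting may have split reads. How alike their sequences are was not measured. In all, 15 members overlap another annotated gene, such as Parp9 with Dtx3l, Tap1 with Psmb9, Irf7 with Phrf1, Igtp with Irgm2 and Irf9 with Rnf31, and the strand setting of the counting is not given in the sources used here.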

How the data were processed

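The authors deposited 1 table of raw counts per gene for each library. Per the submitters' processing notes, TopHat2 2.0.10, SAMtools, HTSeq and DESeq were used with mm10/GRCm38; per the labels' protocols, RNA came from a MagMax-96 kit and libraries from TruSeq Stranded mRNA. The annotation release is not given in the sources used here. No-feature counts (30.4 to 39.3% of gene, no-feature and ambiguous counts) and ambiguous counts (0.471 to 0.554%) were left out.

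All 8 libraries were fitted in edgeR 4.0.16 (TMM, filterByExpr, glmQLFit, glmQLFTest; 1 mean per group, 4 residual degrees of freedom), with Benjamini-Hochberg adjustment over 16456 genes at 0.05. CPM use TMM factors; the SE is the fold change over the square root of F. Names, exon lengths and overlaps came from GENCODE M21. Alternatives used DESeq2 1.42.0 and limma 3.58.1 in R 4.3.3, other filters, each tumour type alone, and each library left out; a fit without B wt 2, T wt 1 and T deltaPOZ 2 was added after seeing the data. Figures used Python 3.11.15 and matplotlib 3.10.9. Promoters came from RefSeq (GRCm38.p6).

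The members, gene lists and doubted libraries were chosen with earlier results of these data known. Members called were named with fold changes up to 10 per direction by smallest p; where fewer than 5 passed, the 5 smallest p were given; of other lists up to 4 genes. The 20 genes low in B tumours, Cmpk2, Mx1, the Tap genes, C1q genes and other members given with fold changes were singled out after their values were seen. Of the pathway entries Gbp5, Gbp6, Mnda and Pyhin1 matched no gene. On simulated data edgeR recovered 0% of 2-fold, 40.3% of 4-fold and 77.3% of 8-fold changes in B, 1.49, 31.3 and 71.2% in T, and 17.9, 80.6 and 90.9% for T against B. Each share rests on 66 or 67 genes, all of them raised. In these simulations 16023, 16071 and 16056 genes passed the filter. A signalling gene is not reported here.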

Additional observations from a re-analysis of the deposited data

Results flagged for a closer look

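In 3 members both B deltaPOZ libraries lay above both B wt libraries while both T deltaPOZ libraries lay below both T wt libraries, against 2.35% of all genes. Trim25 was at 97.9 and 79.8 CPM in T deltaPOZ against 130 and 98.5 CPM in T wt, and at 96.4 and 113 CPM in B deltaPOZ against 70.1 and 70.3 CPM in B wt. The deltaPOZ effect of Trim25 in T minus that in B was -0.94 on the log2 scale (edgeR adjusted p 0.712). Ifih1 was at 21.2 and 29.7 CPM in T deltaPOZ against 37.2 and 31.1 CPM in T wt, and at 9.46 and 4.47 CPM in B deltaPOZ against 2.20 and 3.89 CPM in B wt, a difference of effects of -1.62 (adjusted p 0.788). Ifi35 was at 32.5 and 28.7 CPM in T deltaPOZ against 34.0 and 41.9 CPM in T wt, and at 37.7 and 31.6 CPM in B deltaPOZ against 25.9 and 31.6 CPM in B wt, a difference of effects of -0.58 (adjusted p 0.817). In Ifi35 the order of B deltaPOZ 2 and B wt 2 rests on the scaling: on raw library totals they were at 31.2 and 32.0 CPM, so the B groups overlap. None of the 3 passed the test of the difference.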

How the results depend on the processing

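No paired analysis was possible because the labels give a separate number to each library and no number shared between groups. With 2 libraries a group, changes under 4-fold in deltaPOZ against wt were rarely recovered in simulated data, and 0 calls there sets no bound on them. T against B coincides with the sequencing run. For deltaPOZ against wt in B tumours, members called were 2 with DESeq2 and 7 with no filter, and genes called were 682 with DESeq2, 6 with limma-voom, 1324 with no filter, 9 with a filter of 5 CPM in 2 libraries, 6 in B tumours alone, 39 at a threshold of 0.1 and 0 to 9 with a library left out, against 1 in the fit reported. The members' median in B ran from -0.28 to 0.54 with a library left out. For T tumours genes called were 51 with DESeq2 and 254 with no filter. For the mean of both, genes called were 318 with DESeq2, 886 with no filter, 1 at a threshold of 0.1 and 0 to 5 with a library left out, and members called were 2 with no filter. For the difference of effects, genes called were 225 with DESeq2, 784 with no filter and 0 to 4 with a library left out, members called 3 with no filter, and the median ran from -0.95 to -0.23. For T against B, 13 to 24 members and 3621 to 4900 genes were called with a library left out, and 6 members and 1312 genes, with a median of 0.68, without the 3 doubted libraries. DESeq2 called 28 members, limma-voom 26 and no filter 30, in each case with all 23 of the members reported. Without the 3 doubted libraries 17 of the 23 calls were lost. Of the 43 members, 4 took the opposite sign, T over B, in at least 1 alternative (Ifit3, Ddx58, Eif2ak2 and Trim30a, none of them called); 26 did so for deltaPOZ against wt in B tumours, 22 in T tumours, 23 in the mean and 17 in the difference of effects. The causes were not tested.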
